A study of Mus musculus with 27 samples.

Results

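The genes described here encode the ID proteins (Id1, Id2, Id3) and the E proteins (Tcf3, Tcf4, Tcf12) of the mouse. They were chosen by symbol, as 6 rows among the 24000 gene rows that the count files share. Id1, Id2, Tcf3, Tcf4 and Tcf12 passed the filter on low counts and were tested among 12073 genes; Id3 did not pass.

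E proteins are transcription factors of the basic helix-loop-helix type. They bind short E-box sequences as dimers, with each other or with a tissue-restricted partner such as TAL1. ID proteins have the helix-loop-helix part, through which they dimerise with E proteins, but lack the basic part that contacts DNA, so an E protein held by an ID protein does not bind its sites. Tcf3 encodes E12 and E47 (together called E2A), Tcf12 encodes HEB and Tcf4 encodes E2-2, which is not the Wnt pathway factor encoded by Tcf7l2. E2A is required for early B-cell development, and Id genes are known as rapid targets of growth factor and BMP signals.

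PolyA RNA was measured in 27 libraries of Ba/F3 cells, a mouse line labelled pro-B that needs the cytokine IL3 and was kept in IL3 at 1 ng/mL. Wild-type cells without a hairpin went without IL3 for 6 h (n = 5), or went without it for 6 h before 30 min with IL3 at 10 ng/mL (n = 5). All hairpin cells were deprived and stimulated in that second way after lentiviral transduction and puromycin selection, and they carried a no-target hairpin (n = 5) or one against STAT5A, STAT5B, HDAC3 or LSD1 (n = 3 in each group). The IL3 receptor activates the transcription factors STAT5A and STAT5B; LSD1 (gene Kdm1a) and HDAC3 remove histone marks within co-repressor complexes. No hairpin group without IL3 was analysed here, so a knockdown is compared at the stimulated level only and its effect on the rise after IL3 cannot be computed. Whether the hairpin cells were pools or clones, and how many hairpin sequences each target had, is not given in the sources used here.

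Depth ranged from 5.48 to 33.8 M reads counted in genes per library. The targeted gene was lower in each knockdown, with no overlap with the no-target libraries: Stat5a at 26.0 ± 2.03 against 72.3 ± 14.8 CPM (counts per 1 M reads in genes; mean ± SD over libraries here and below), Stat5b at 33.0 ± 3.39 against 116 ± 16.2, Kdm1a at 76.9 ± 23.9 against 145 ± 10.6, and Hdac3 at 58.2 ± 22.2 against 131 ± 23.1. In 5 libraries the share of reads outside annotated genes was 14.0 to 24.9%, against 8.70 to 12.0% in the remaining 22; they were no-target replicates 1 and 3, LSD1 replicate 1 and HDAC3 replicates 1 and 2, and they were also shallow, at 5.48 to 7.53 M reads. Of 16 B-lineage markers only Ptprc, Cd79a and Cd79b exceeded a mean of 1 CPM. The sum of these 16 markers was 260 to 658 CPM over the libraries. Transcripts of Ebf1 and Pax5, transcription factors of committed B cells, stayed under 1 CPM in every library. Markers of other blood lineages were also present. The sum of 12 erythroid and megakaryocyte genes was 230 to 1084 CPM. Of these, 4 exceeded a mean of 1 CPM, and the haemoglobins were at 0. Myeloid and mast cell levels are given beside the knockdowns.

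The 3 Id genes are short and lie apart on different chromosomes, and no other annotated gene overlaps them or Tcf3. On GRCm38 (GENCODE vM21), Id1 spans chr2:152736251-152737410 on the + strand, Id2 chr12:25093799-25097140 on the - strand and Id3 chr4:136143497-136145755 on the + strand. Tcf3 spans chr10:80409514-80433647 and Tcf12 chr9:71842688-72111871, both on the - strand. Over its whole span, introns included, Tcf12 is overlapped by 11 further annotated loci and Tcf4 by 1. The locus in Tcf4 and several in Tcf12 lie on the strand of the host gene, the rest on the other strand. The annotation and strand setting of the counting are not given in the sources used here. Whether reads from those loci entered the count of the host gene therefore cannot be told. A stretch of 120 coding bases from the helix-loop-helix part of each Id gene is shown, because the proteins pair through this part. It was picked as the in-frame stretch most alike between Id1 and Id3, with the Id2 stretch most like that of Id1. Its shared bases thus describe the most alike part and not the whole genes. Capitals mark the 77 bases that are identical in all 3 genes.
Id1: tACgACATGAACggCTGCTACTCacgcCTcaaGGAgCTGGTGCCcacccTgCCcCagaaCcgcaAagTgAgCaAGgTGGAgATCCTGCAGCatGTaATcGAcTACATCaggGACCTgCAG
Id2: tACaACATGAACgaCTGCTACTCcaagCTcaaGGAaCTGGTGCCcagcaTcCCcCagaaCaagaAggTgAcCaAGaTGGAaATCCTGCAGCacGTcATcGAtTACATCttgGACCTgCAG
Id3: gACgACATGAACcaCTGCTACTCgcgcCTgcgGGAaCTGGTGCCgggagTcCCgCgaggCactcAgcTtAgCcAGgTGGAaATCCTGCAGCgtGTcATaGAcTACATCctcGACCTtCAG
These are coding bases 178 to 297 of 444 in Id1, 109 to 228 of 402 in Id2 and 124 to 243 of 357 in Id3. Id1 and Id2 shared 98 of the 120 bases, Id1 and Id3 85, and Id2 and Id3 86. Over whole transcripts, the longest exact run shared was 11 bases between Id1 and Id2, 12 between Id1 and Id3, and 19 between Id2 and Id3. Among the E protein genes it was 47 bases between Tcf4 and Tcf12, 23 between Tcf3 and Tcf4, and 18 between Tcf3 and Tcf12.

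Id1 rose 12.9-fold within 30 min of IL3 in wild-type cells, and it was the member that passed the test. Id1 stood at 19.9, 26.5, 21.0, 24.6 and 35.2 CPM in deprived replicates 1 to 5. After IL3 it stood at 158, 386, 314, 343 and 442 CPM. Every stimulated library lay above every deprived library, and the lowest stimulated value, in replicate 1, was still several times the highest deprived one. The means were 25.5 ± 6.08 CPM without and 329 ± 107 CPM with IL3, a log2 fold change of 3.69 (SE 0.27, 95% interval 3.13 to 4.26, edgeR adjusted p = 1.30e-09), which as a fold has an interval of 8.74 to 19.1. Replicate numbers paired the wild-type libraries, and the fold within a pair was 7.95, 14.5, 15.0, 13.9 and 12.5 for replicates 1 to 5. The rise was thus present in 5 of 5 pairs, and smallest in replicate 1.

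No other member passed in the wild-type comparison, so 1 of the 5 tested members was called, where 3.82% of all tested genes were called (461 genes) and 11.2% had groups that did not overlap. It was also the one member with an unadjusted p under 0.05, which 14% of all tested genes had. In a fit of the wild-type libraries alone that had a replicate block, 2504 genes were called, against 461 in the fit of all libraries. The number of genes tested in that fit is not given here, so 1 of 5 members cannot be set against a share. Id1 had a log2 fold change of 3.64 in it (edgeR adjusted p = 4.93e-06), and no other member was called.

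Id2, the ID gene best known for restraining E2A in lymphoid lineages, was low in wild type and did not pass. It stood at 10.9, 9.35, 6.44, 7.70 and 10.6 CPM in deprived replicates 1 to 5. It stood at 11.7, 11.2, 13.8, 8.85 and 12.0 CPM after IL3. The groups overlapped, although the stimulated value was the higher one in each of the 5 pairs, by 1.07 to 2.15-fold. The log2 fold change was 0.36 (SE 0.53, interval -0.73 to 1.44, edgeR adjusted p = 0.825). This SE and interval come from the fit of all 27 libraries, which the hairpin libraries enter, and do not measure the wild-type spread alone. A fit of the 2 wild-type groups gave 0.36 (adjusted p = 0.189), and one with the block in wild type alone 0.37 (adjusted p = 0.108). Id3 was at the limit of detection: 17 reads were counted in all 27 libraries together, at most 3 in any library, and 17 libraries had none. A count of 3 corresponds to 0.0888 to 0.528 CPM depending on the library, so Id3 was not detectable above that level in any group, and no fold change is given. Id4, the fourth gene of the family and not among the members, had 0 reads in every library.

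The E protein genes differed little between deprived and stimulated wild type. Tcf3 stood at 134, 135, 126, 138 and 153 CPM without IL3. With IL3 it stood at 133, 126, 119, 118 and 126 CPM. The groups overlapped, but Tcf3 was lower after IL3 in all 5 pairs, at 0.826 to 0.997 of the deprived value. Its log2 fold change was -0.14 (SE 0.12, adjusted p = 0.659), and -0.13 with the block in wild type alone (adjusted p = 0.125). Tcf4 stood at 29.8, 30.6, 30.5, 34.6 and 28.0 CPM without IL3, and at 35.4, 31.8, 30.0, 36.6 and 29.1 CPM with it. Tcf12 stood at 131, 138, 79.2, 127 and 107 CPM without IL3, and at 136, 136, 125, 130 and 124 CPM with it. For both genes the groups overlapped, and deprived replicates 3 and 5 were the lowest wild-type libraries for Tcf12. Their log2 fold changes were 0.09 (Tcf4, adjusted p = 0.933) and 0.16 (Tcf12, adjusted p = 0.814).

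**Figure D1:**
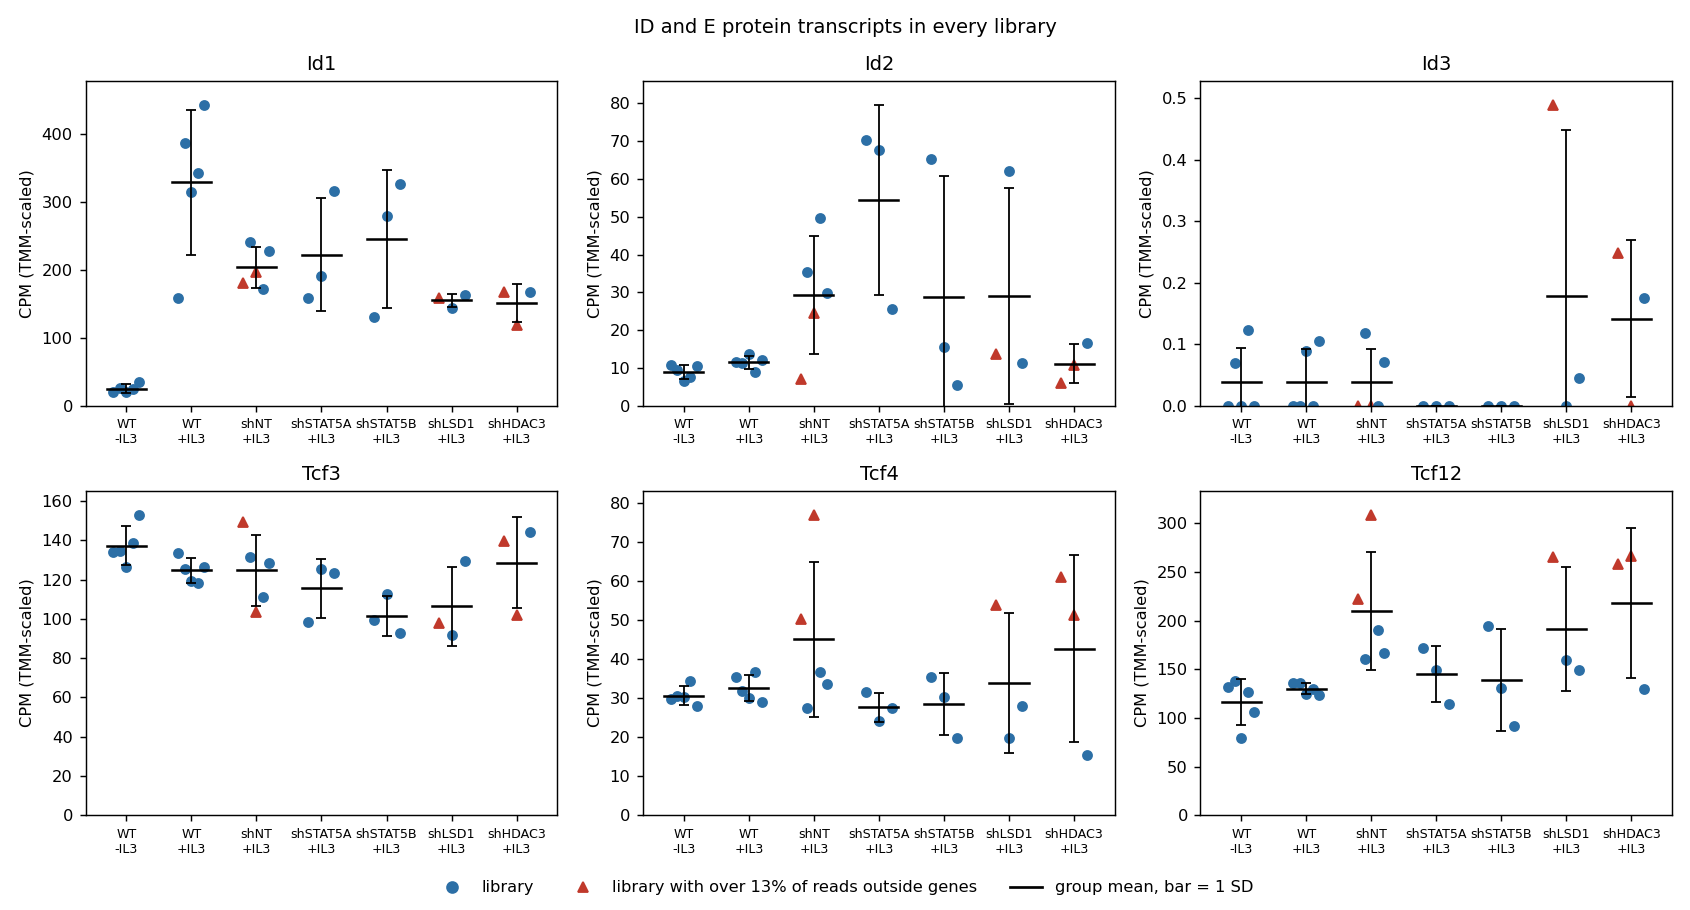
Level of each member in every library (vertical axes, CPM scaled by library size, each starting at 0) by group (horizontal axes; WT, wild type; sh, hairpin). Points are libraries, triangles those with over 13% of reads outside genes, horizontal lines group means and bars 1 SD, cut at 0. Id1 is at 19.9 to 35.2 CPM in deprived wild type and at 119 CPM or more in all other libraries.

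In the hairpin cells, all given IL3, Id1 was above the deprived wild-type level in every library, with group means below that of stimulated wild type. It stood at 180, 241, 196, 172 and 228 CPM in no-target replicates 1 to 5. It stood at 159, 190 and 316 CPM in the STAT5A knockdown and at 131, 279 and 325 CPM in the STAT5B knockdown. The lowest of the 17 hairpin libraries stood at 119 CPM, against a highest value of 35.2 CPM in deprived and a lowest of 158 CPM in stimulated wild type. Both STAT5 knockdowns overlapped the no-target libraries for every tested member, where 4.8% of all tested genes did not overlap with the STAT5A and 5.72% with the STAT5B hairpin. The log2 fold change against no target was 0.13 with the STAT5A hairpin (SE 0.28, interval -0.46 to 0.71, adjusted p = 0.869) and 0.27 with the STAT5B hairpin (SE 0.28, interval -0.31 to 0.85, adjusted p = 0.620). The lower ends of these intervals are 0.729-fold and 0.805-fold. They rest on 3 libraries in each knockdown group and are not firm limits. Leaving out single libraries gave estimates of -0.22 to 0.34 for STAT5A and 0.01 to 0.58 for STAT5B, which lie within the intervals. The target transcripts were lowered and not absent, at 26.0 CPM for Stat5a and 33.0 CPM for Stat5b. The intervals therefore do not bound the effect of a full loss of either factor.

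Id1 was at 158, 144 and 163 CPM with the LSD1 hairpin, and at 168, 119 and 167 CPM with the HDAC3 hairpin. Every one of these 6 libraries was below the lowest no-target library. Among all tested genes, 2.81% had groups that did not overlap in the LSD1 and 2.44% in the HDAC3 comparison. Neither difference passed the test: the log2 fold change was -0.39 for LSD1 (SE 0.29, interval -0.98 to 0.20, adjusted p = 0.978) and -0.43 for HDAC3 (SE 0.29, interval -1.02 to 0.17, adjusted p = 0.870). Set directly against each other, the LSD1 and HDAC3 knockdowns had a log2 fold change of 0.04 for Id1 (adjusted p = 0.968), and the STAT5A and STAT5B knockdowns one of -0.14 (adjusted p = 1). In these direct comparisons no member had groups that did not overlap, against 10.5% of all tested genes for LSD1 and HDAC3 and 7.07% for STAT5A and STAT5B.

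Ordered by mean, Id1 was highest in stimulated wild type at 329 ± 107 CPM, followed by the STAT5B knockdown at 245 ± 102, the STAT5A knockdown at 222 ± 83.1, no target at 203 ± 29.9, LSD1 at 155 ± 9.74, HDAC3 at 151 ± 27.9 and deprived wild type at 25.5 ± 6.08. Neighbours in this order overlapped, apart from no target and LSD1, and HDAC3 and deprived wild type.

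Across the 4 knockdowns no member passed the test, and none did in the direct comparisons of 2 knockdowns. The share of all tested genes called was itself small: 0.0663% for STAT5A, 0.34% for STAT5B, 0.166% for LSD1, 0.0248% for HDAC3, 0.0248% for STAT5A against STAT5B and 0.82% for LSD1 against HDAC3. The lowest adjusted p of any member was 0.566, 0.294, 0.885, 0.861, 1 and 0.372 in these comparisons in turn. With unadjusted p under 0.05, the count of members was 2 of 5 for STAT5B (Tcf3 and Tcf12), where 15.9% of all tested genes passed, and 1 for HDAC3 (Id2), where 5.69% did. It was 0 for STAT5A (8.42% of all genes), LSD1 (6.71%), STAT5A against STAT5B (3.39%) and LSD1 against HDAC3 (14.2%). The STAT5A, STAT5B, LSD1 and HDAC3 comparisons use the same no-target libraries.

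Marker genes of other blood cells were measured in the same libraries. The sum of 12 myeloid markers was 84.8 to 252 CPM with no target, 160 to 548 with STAT5A, 232 to 617 with STAT5B, 335 to 520 with LSD1 and 78.7 to 129 with HDAC3, and 106 to 229 in wild type. None of these markers was at 0 throughout, and the median log2 fold change of the 9 tested was 1.32, 2.11, 0.87 and -0.69 in the knockdowns in that order, and -0.04 with IL3 in wild type. Cd14 was called with STAT5A (14.4 ± 24.4 against 0.169 ± 0.241 CPM, adjusted p = 0.0459), a call that rests on replicate 3 (log2 fold change 6.51, and 1.04 without it). Lyz2 was called with STAT5B (9.96 to 15.4 against 4.05 to 6.99 CPM, log2 fold change 1.23, adjusted p = 0.0453), a call that was lost without any 1 of the STAT5B libraries. Cd68 rose with IL3 in wild type, from 6.61 ± 0.959 to 14.4 ± 3.66 CPM (adjusted p = 0.00489). The sum of 9 mast cell and basophil markers was 115 to 469 CPM with no target, 271 to 334 with STAT5A, 217 to 1019 with STAT5B, 161 to 1601 with LSD1 and 81.1 to 643 with HDAC3, and 63.1 to 591 in wild type. The part of these levels in the members' values was not tested.

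**Figure D2:**
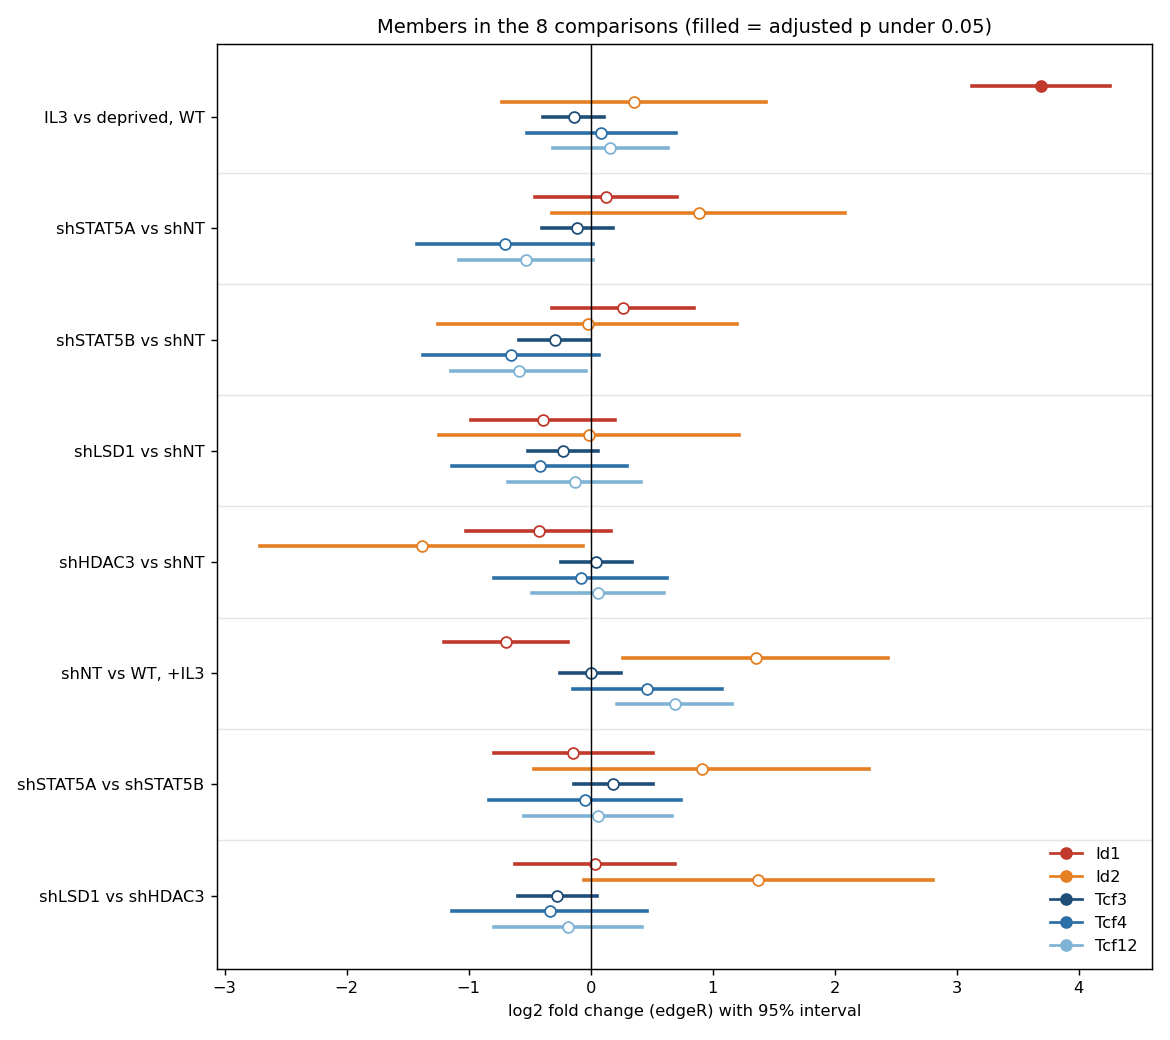
Log2 fold change of the 5 tested members (horizontal axis, edgeR estimate with 95% interval) in the 8 comparisons (rows; sh, hairpin; shNT, no target; WT, wild type). Filled points passed an adjusted p of 0.05; Id1 in the wild-type IL3 comparison, at 3.69, is the filled point, and intervals of Id2 are the widest.

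Id2 was the most variable member among hairpin cells. It stood at 7.16, 35.4, 24.6, 49.8 and 29.7 CPM in no-target replicates 1 to 5. It stood at 70.3, 67.6 and 25.6 CPM in the STAT5A, and at 65.2, 15.6 and 5.52 CPM in the STAT5B knockdown. High and low libraries occurred within one group. STAT5B replicate 3 was the lowest of all hairpin libraries, while STAT5B replicate 1 was exceeded only by STAT5A replicates 1 and 2. With the LSD1 hairpin Id2 stood at 13.8, 62.0 and 11.4 CPM, and with the HDAC3 hairpin at 6.08, 10.9 and 16.6 CPM. The 10 wild-type libraries, by contrast, kept within 6.44 to 13.8 CPM.

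This spread set the precision of the Id2 comparisons. The log2 fold change was 0.88 for STAT5A (SE 0.58, interval -0.32 to 2.08, adjusted p = 0.603), -0.02 for STAT5B (SE 0.59, adjusted p = 0.986), -0.01 for LSD1 (SE 0.60, adjusted p = 0.999) and -1.39 for HDAC3 (SE 0.64, interval -2.71 to -0.06, unadjusted p = 0.0413, adjusted p = 0.861). All 4 groups overlapped the no-target libraries. By mean, Id2 was highest in the STAT5A knockdown at 54.5 ± 25.1 CPM. No target (29.3 ± 15.6), LSD1 (29.1 ± 28.6) and STAT5B (28.8 ± 31.9) followed, then stimulated wild type (11.5 ± 1.79), HDAC3 (11.2 ± 5.27) and deprived wild type (9.01 ± 1.92). All neighbours in this order overlapped.

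Tcf3 was the steadiest member, at 91.7 to 153 CPM over all 27 libraries. It stood at 149, 131, 103, 111 and 129 CPM with no target. It stood at 98.3, 125 and 123 CPM in the STAT5A knockdown, at 99.5, 113 and 92.6 CPM with STAT5B, at 97.8, 91.7 and 130 CPM with LSD1, and at 140, 102 and 144 CPM with HDAC3. All 4 knockdowns overlapped the no-target libraries. The STAT5B value was the farthest from 0, with a log2 fold change of -0.30 (SE 0.14, unadjusted p = 0.0466, adjusted p = 0.311); the others lay between -0.23 and 0.05. In order of mean, Tcf3 ran from 137 ± 9.85 CPM in deprived wild type through HDAC3 (129 ± 23.0), no target (125 ± 18.0), stimulated wild type (125 ± 6.13), STAT5A (116 ± 15.0) and LSD1 (106 ± 20.3) to STAT5B (102 ± 10.1), with overlap between all neighbours.

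Tcf4 and Tcf12 were highest in the 5 libraries rich in reads outside genes, whichever hairpin these carried. In those 5 libraries Tcf12 stood at 222 to 309 CPM (median 265) and Tcf4 at 50.4 to 77.1 CPM (median 54.0). In the other 12 hairpin libraries Tcf12 stood at 91.4 to 195 CPM (median 155) and Tcf4 at 15.5 to 36.8 CPM (median 27.8). The 5 libraries thus lay above all others for both genes. Tcf3, at 97.8 to 149 CPM, and Id1, at 119 to 196 CPM, did not stand apart in them in this way, and neither did Id2 at 6.08 to 24.6 CPM. The Pearson correlation of log2 CPM with the share of reads outside genes was 0.79 for Tcf12, 0.74 for Tcf4 and -0.08 for Id2 over all 27 libraries. Over the 22 libraries without the 5 it was 0.59 for Tcf12, 0.39 for Tcf4 and 0.49 for Id2. For Tcf3 it was -0.35 and for Id1 0.07 over these 22. The correlations of Tcf12 and Tcf4 thus stayed positive without the 5 libraries, while that of Id2 was positive only without them. The 22 libraries mix wild-type and hairpin groups, so differences between groups cannot be told apart from the share in these values. Whether the reads outside genes have a part in the Tcf4, Tcf12 and Id2 values was not tested.

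**Figure D3:**
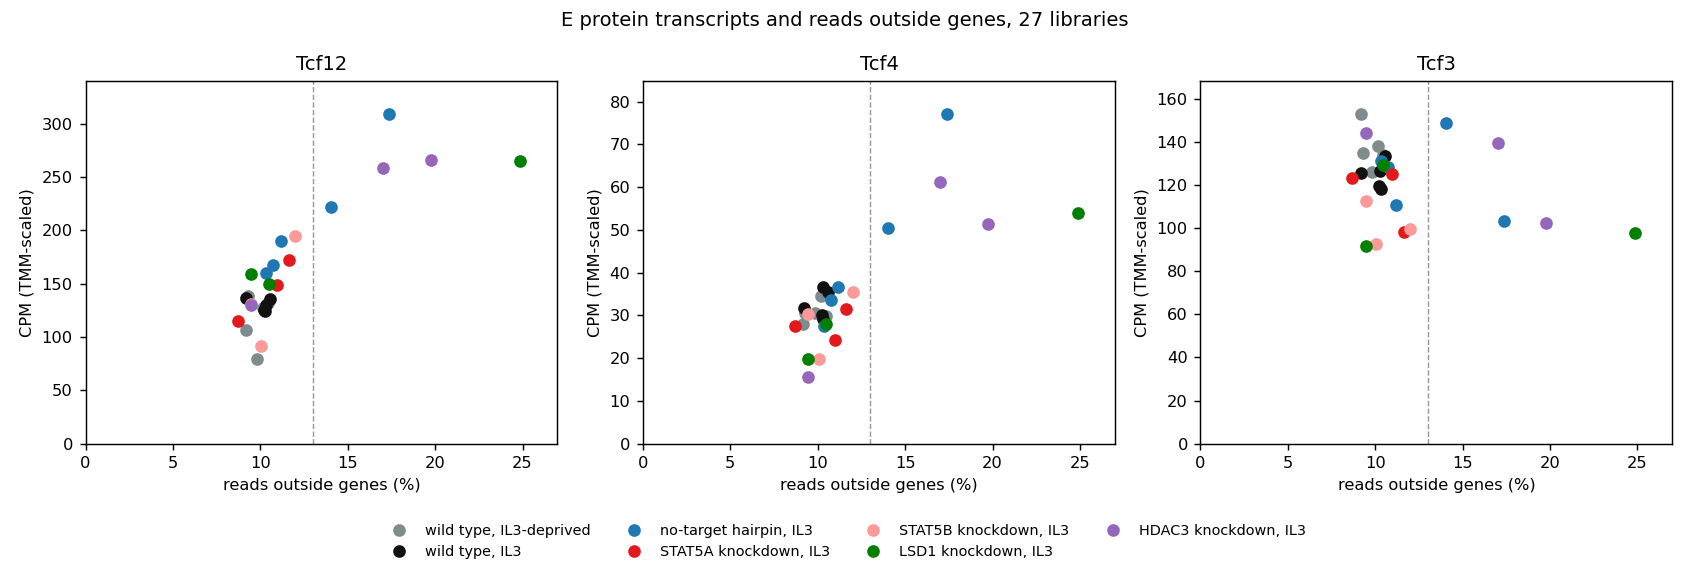
Level of the 3 E protein genes (vertical axes, CPM, each starting at 0) against the share of reads outside annotated genes (horizontal axes, percent) in 27 libraries, coloured by group; the dashed line is at 13%. To the right of it Tcf12 is at 222 CPM or more and Tcf4 at 50.4 CPM or more, above all libraries to the left, while Tcf3 is not.

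Within groups, the Tcf4 and Tcf12 values therefore split by library. Tcf12 stood at 222, 160, 309, 190 and 167 CPM in no-target replicates 1 to 5, at 172, 149 and 115 CPM with STAT5A and at 195, 131 and 91.4 CPM with STAT5B. It stood at 265, 159 and 150 CPM with LSD1, and at 259, 266 and 130 CPM with HDAC3. Each of the LSD1, HDAC3 and no-target groups thus had high values in the libraries named above and lower values in the rest. The log2 fold change of Tcf12 was -0.53 for STAT5A (SE 0.27, adjusted p = 0.566) and -0.59 for STAT5B (SE 0.27, unadjusted p = 0.0374, adjusted p = 0.294). Without the 5 libraries these became -0.25 and -0.31. For LSD1 and HDAC3 it was -0.13 and 0.06, and for HDAC3 it turned to -0.41 without the 5 libraries, which leaves 1 HDAC3 library.

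Tcf4 followed the same split. It stood at 50.4, 27.6, 77.1, 36.8 and 33.6 CPM with no target, at 31.5, 24.1 and 27.4 CPM with STAT5A and at 35.5, 30.3 and 19.8 CPM with STAT5B. It stood at 54.0, 19.8 and 28.0 CPM with LSD1, and at 61.1, 51.4 and 15.5 CPM with HDAC3. The highest value came from a no-target library and the lowest from an HDAC3 library. The log2 fold change was -0.70 for STAT5A (SE 0.35, adjusted p = 0.566), -0.65 for STAT5B (SE 0.35, adjusted p = 0.349), -0.42 for LSD1 and -0.08 for HDAC3. Without the 5 libraries the STAT5A and STAT5B values were -0.24 and -0.19. The HDAC3 value was then -1.07, which rests on the 1 HDAC3 library left.

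By mean, Tcf12 was highest with HDAC3 at 218 ± 76.7 CPM, followed by no target (210 ± 60.5), LSD1 (191 ± 64.1), STAT5A (145 ± 29.0), STAT5B (139 ± 52.2), stimulated wild type (130 ± 5.82) and deprived wild type (116 ± 23.9). Tcf4 ran from 45.1 ± 19.8 CPM with no target through HDAC3 (42.7 ± 24.0), LSD1 (33.9 ± 17.9), stimulated wild type (32.6 ± 3.31), deprived wild type (30.7 ± 2.39) and STAT5B (28.5 ± 7.99) to STAT5A (27.7 ± 3.69). All neighbours overlapped for both genes. Leaving out the 5 libraries brought the no-target mean to 173 ± 15.6 CPM for Tcf12 and to 32.7 ± 4.65 CPM for Tcf4 (n = 3).

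Between stimulated wild type and no-target cells, which differ by the lentivirus, its hairpin and the selection, no gene was called by edgeR (0% of 12073; 2042 genes, or 16.9%, had an unadjusted p under 0.05, and DESeq2 called 122). Id1 had a log2 fold change of -0.69 (SE 0.25, unadjusted p = 0.00969, adjusted p = 0.225), and wild-type replicate 1 lay below all no-target libraries. For Id2 it was 1.35 (SE 0.53, unadjusted p = 0.0169, adjusted p = 0.239), with no-target replicate 1 below every stimulated wild-type library and the other 4 above them all. Tcf12 was higher in every no-target library than in every stimulated wild-type library, which 5.34% of all tested genes share in either direction (log2 fold change 0.69, SE 0.23, unadjusted p = 0.00596, adjusted p = 0.215). Without the 5 libraries the Tcf12 value was 0.40 and the Id2 value 1.73. Tcf3 differed by a log2 fold change of 0.00 (interval -0.25 to 0.25).

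To compare genes with each other, CPM was divided by the length of the union of annotated exons in kb. In deprived wild type Tcf3 was the most abundant member at 34.0 ± 2.44 CPM per kb. Id1 followed at 22.0 ± 5.24, Tcf12 at 7.50 ± 1.54, Id2 at 3.70 ± 0.787 and Tcf4 at 1.12 ± 0.0872. After IL3 Id1 led at 283 ± 92.0 CPM per kb, with Tcf3 at 30.9 ± 1.52, Tcf12 at 8.38 ± 0.375, Id2 at 4.73 ± 0.736 and Tcf4 at 1.19 ± 0.121. The order of Id1 and Tcf3 was thus exchanged, while the remaining members kept their places. Union lengths of Tcf4 and Tcf12 are large, at 27.4 and 15.5 kb; with the longest transcript instead, Tcf4 stood at 3.80 ± 0.386 and Tcf12 at 20.7 ± 0.924 CPM per kb after IL3.

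The summed ID transcripts were fewer than the summed E protein transcripts in deprived cells and more numerous in all stimulated ones. Per kb, the ratio of the ID sum to the E protein sum was 0.507 to 0.759 in the 5 deprived libraries, with a mean of 0.599 ± 0.0974. It was 7.18 ± 2.36 in stimulated wild type, 6.60 ± 2.98 with STAT5B, 5.48 ± 1.56 with STAT5A, 4.13 ± 0.834 with no target, 3.71 ± 0.638 with LSD1 and 2.85 ± 0.488 with HDAC3. The no-target, LSD1 and HDAC3 groups hold the 5 libraries rich in reads outside genes, where Tcf4 and Tcf12 were high. These libraries had the lowest ratios of their groups. They stood at 2.98 and 3.71 against 4.11 to 5.07 with no target, and at 3.29 against 3.39 and 4.44 with LSD1. With HDAC3 they stood at 2.75 and 2.41 against 3.38. Their part in the order of the groups was not tested. Every one of the 22 libraries given IL3 had a ratio above 1, the lowest being 2.41 in the HDAC3 knockdown. Id1 made up 85.3% of the ID sum in deprived and 98.1% in stimulated wild type, and Tcf3 made up 79.8% and 76.3% of the E protein sum. With the longest transcript as length, the ratios were lower, at 0.386 without and 4.37 with IL3 in wild type. They were at least 1.30 in every library given IL3, and so stayed above 1 there. For deprived cells this length was no check on the side of 1. A longest transcript cannot exceed the union, and Id1, most of the ID sum, is 1.16 kb by both. These ratios are of transcripts and not of proteins, and they carry no test. In RNA from whole cultures, fewer cells that express a gene and less RNA per cell cannot be told apart.

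**Figure D4:**
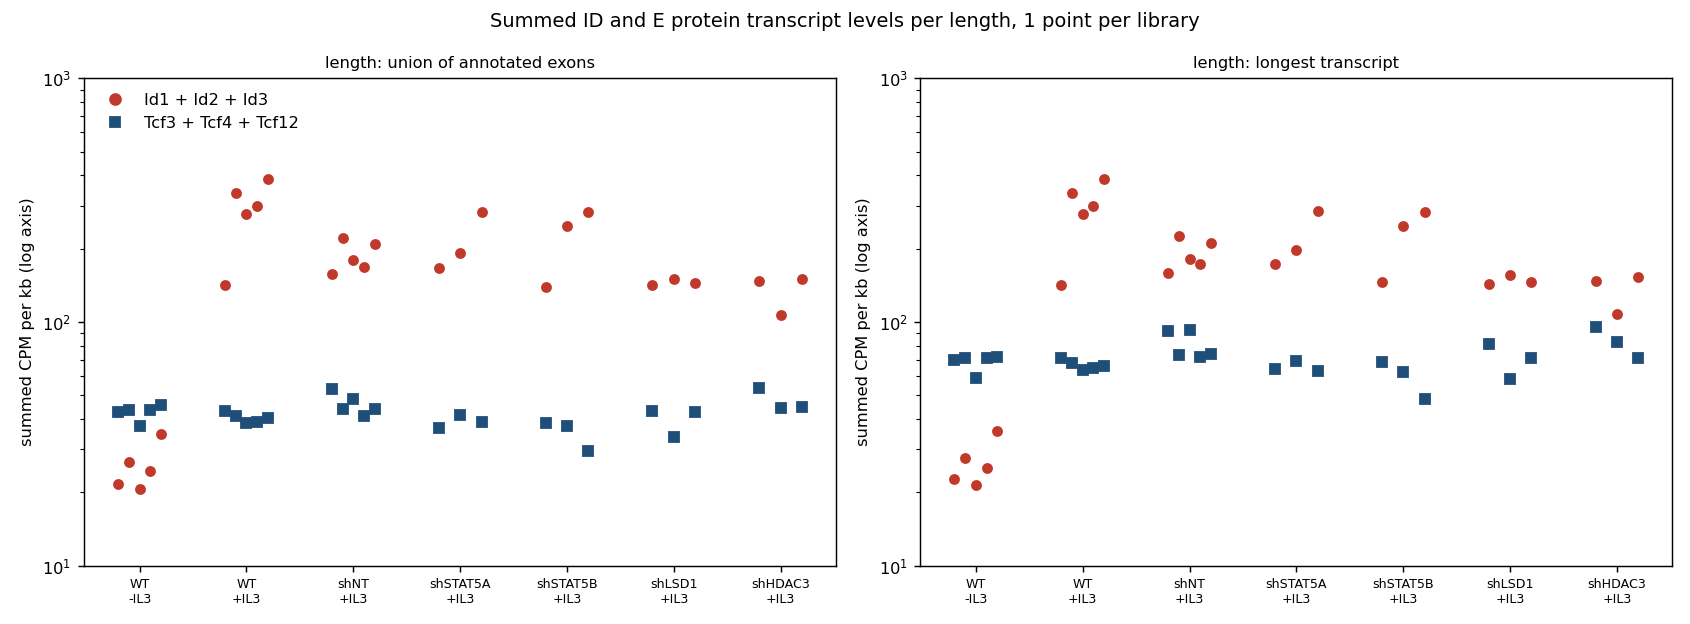
Summed level of the ID genes (circles) and of the E protein genes (squares) per kb in every library, on a logarithmic vertical axis (CPM per kb), by group (horizontal axis; WT, wild type; sh, hairpin), with length as the union of exons (left) or the longest transcript (right). Circles lie below squares in deprived wild type and above them in every group given IL3, with either length.

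Several partners and inputs of this network were also measured. Of 46 listed class II or tissue-restricted partners of the E proteins, 45 were in the files and 3 were tested. Tal1 and Lyl1, which pair with E proteins in blood progenitors, reached group means of up to 393 and 252 CPM and were called in no comparison. Scx, encoding scleraxis, was at 0.991 ± 0.0778 CPM without and 3.04 ± 1.04 CPM with IL3, a called rise (log2 fold change 1.60, SE 0.39, adjusted p = 0.0167). The list's median log2 fold change was -0.18, against -0.02 over all genes. Among the E protein cofactors, which include Lmo2, Ldb1, Gata1 and Gata2, 0 of 15 tested were called with IL3 (median -0.14). None of the 12 tested genes of ID and E protein turnover was called either (median -0.02). With IL3, 3.82% of all tested genes were called, and 0 calls in lists of this size lie near that share.

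Of 13 other helix-loop-helix repressors, 3 were tested. Bhlhe40, a repressor that binds E-boxes itself, also rose with IL3, with 35.9 ± 12.6 CPM before and 112 ± 9.61 CPM after (log2 fold change 1.64, SE 0.36, adjusted p = 0.00631). It fell by 1.97 on the log2 scale in the STAT5B knockdown, from 244 ± 104 to 62.4 ± 28.0 CPM (adjusted p = 0.0453), a call that was lost in several alternative fits.

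Known inputs to Id genes were measured as well. Among EGR factors and their NAB co-repressors, 3 of 5 tested rose with IL3 (median 1.65): Egr2 from 0.436 ± 0.201 to 167 ± 47.2 CPM, Egr3 from 0.0585 ± 0.0972 to 1.28 ± 0.592 CPM and Egr1 from 0.478 ± 0.317 to 1.55 ± 0.358 CPM. Egr1 and Egr3 thus stayed near 1 CPM, and the call of Egr1 was lost in 4 of the fits that leave out 1 library. Among genes of BMP and TGF-beta signalling, 0 of 19 tested were called (median 0.15), beside 3.82% of all tested genes.

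Of 36 genes listed as E protein targets in B and T progenitors, 14 passed the filter. Socs1, Socs3 and the cell cycle inhibitor Cdkn1a rose with IL3, and the repressor Gfi1b fell by 1.32 on the log2 scale (edgeR adjusted p = 0.0177). These were the genes of the list called with IL3, where 3.82% of all tested genes were called. The median was 0.13. Socs1 and Socs3 are also textbook STAT5 targets. Cdkn1a went from 203 ± 34.1 to 885 ± 201 CPM, and Cd79a stood at 52.1 ± 3.90 without and 48.3 ± 2.97 CPM with IL3. Gfi1b was the one gene of this list called in a knockdown: it stood at 258 ± 162 CPM with LSD1 against 36.3 ± 19.2 CPM with no target (log2 fold change 2.83, adjusted p = 0.000251). It also differed between the LSD1 and HDAC3 knockdowns (3.68, adjusted p = 0.000421). For mast cell and basophil markers the median log2 fold change of the 6 tested was 2.19 for LSD1 against no target, with Cpa3 called (138 ± 219 against 5.01 ± 3.50 CPM, adjusted p = 0.0279; log2 fold change 4.77, and 1.1 without LSD1 replicate 2). It was 2.35 for LSD1 against HDAC3, with Hdc called (156 ± 114 against 6.50 ± 2.37 CPM, adjusted p = 0.0457). Their part in the Gfi1b values was not tested.

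Genes whose level followed a member most closely over the 27 libraries were found by the Pearson correlation of log2 CPM, as a description only, since the libraries share groups, depth and reads outside genes. For Id1 they were Junb (r = 0.950), Srf (0.937) and Phlda1 (0.935), which are genes of the early response to growth factors, and r was 0.947 to 0.963 for them over the 22 libraries without high reads outside genes. For Id2 they were Lcp2 (0.910), Epsti1 (0.885) and Fam174a (0.879). For Tcf3 they were Zfp777 (0.855), Sfswap (0.843) and Prpf19 (0.829). For Tcf4 they were Zfp318 (0.937), Ccdc18 (0.933) and Stag1 (0.931), which over the 22 libraries stood at 0.812 to 0.820. For Tcf12 they were Ahcyl2 (0.960), Braf (0.960) and Xiap (0.958), which over the 22 libraries stood at 0.881 to 0.919. The likeness of Tcf4 to its genes thus dropped most without the 5 libraries that hold its highest values.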

How the data were processed

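The files the authors deposited hold raw counts of reads by gene symbol, whole numbers, with 1 file per library. Per the submitters' processing notes, the tools were Trimmomatic 0.30, TopHat2 2.0.10, HTSeq 0.5.4p5 and DESeq2 1.2, with the mm10 build; their settings and annotation are not given in the sources used here. Libraries were grouped by their labels, which call them biological replicates. The 5 HTSeq summary rows were left out of library sizes and served only to give reads outside genes. CPM used TMM factors. All 27 libraries entered 1 edgeR 4.0.16 quasi-likelihood fit (R 4.3.3, limma 3.58.1, robust, filterByExpr, a mean per group), with Benjamini-Hochberg adjustment over 12073 genes and calls at an adjusted p under 0.05. The method was tested on simulated counts. Members and lists were chosen with earlier results of these data known. Named genes are the members, the hairpin targets, up to 4 called genes per list and comparison, and the 3 genes most like each member (mean CPM of at least 5); others (Tal1, Lyl1, Cd79a, Cd79b, Ptprc, Ebf1, Pax5, Id4) were chosen after their values were seen. Some marker genes are not reported here. Floors are 3 counts and cover counting error only. In wild type, equal replicate numbers paired the libraries (correlation of deviations from group means 0.346 to 0.699 in 5 pairs); in no other comparison did every pair exceed 0.1. Alternatives were RLE factors, no filter, DESeq2 1.42.0, only the 2 groups compared, a replicate block, leaving out each library, leaving out 5 libraries rich in reads outside genes and, chosen after seeing the data, the block within wild type alone. Lengths, positions and coding sequences came from GENCODE vM21 (GRCm38).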

Additional observations from a re-analysis of the deposited data

How the results depend on the processing

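Id1 in wild type was called under all 17 alternatives (log2 fold change 3.56 to 3.88), and no other member was called in any comparison under any alternative. Of 565 log2 fold changes of members under alternatives, 520 kept their direction and 45 turned; all 45 belong to differences that did not pass the test, and the cause was not tested. For Tcf3, no target against stimulated wild type, the value was -0.037 without the filter, -0.017 without the 5 libraries rich in reads outside genes, -0.0099 with the replicate block, and -0.058 to 0.048 leaving out single libraries. For HDAC3 Tcf12 was -0.41 without the 5 libraries and -0.089 with the block, and leaving out single libraries gave -0.11 to 0.31 for Tcf12, -0.053 to 0.19 for Tcf3 and -0.44 to 0.32 for Tcf4. For LSD1 Id2 was 0.0018 in a fit of the 2 groups and 0.21 with the block, and leaving out single libraries gave -1.24 to 0.37 for Id2 and -0.43 to 0.037 for Tcf12. For LSD1 against HDAC3, without the 5 libraries, Id1 was -0.13, Tcf4 0.62 and Tcf12 0.25; leaving out single libraries gave -0.11 to 0.12 for Id1 and -0.81 to 0.024 for Tcf4. Leaving out single libraries gave -0.22 to 0.34 for Id1 and -0.16 to 0.015 for Tcf3 with STAT5A, -1.44 to 0.45 for Id2 with STAT5B, and -0.49 to 0.12 for Id1, -0.25 to 0.14 for Tcf4 and -0.17 to 0.38 for Tcf12 in STAT5A against STAT5B.

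The number of all tested genes called, in the fit reported and over its alternatives, was 461 (298 to 2504) for IL3 in wild type, 8 (0 to 32) for STAT5A, 41 (1 to 171) for STAT5B, 20 (0 to 57) for LSD1, 3 (0 to 9) for HDAC3, 0 (0 to 122) for no target against wild type, 3 (0 to 12) for STAT5A against STAT5B and 99 (0 to 403) for LSD1 against HDAC3. The lowest counts in the knockdowns came partly from fits of the 2 groups alone, which have fewer libraries. With stimulated wild-type replicate 4 left out, 298 genes were called. Calls were lost when 1 library was left out for Egr1 (deprived replicates 3 and 5, stimulated 1 and 4), Gfi1b in wild type (stimulated 2 to 5), Scx (stimulated 4 and 5), Hdac3 (HDAC3 2 and 3, no-target 2), Bhlhe40 (STAT5B 2 and 3, no-target 1 to 4), Cd14 (STAT5A 3, no-target 1, 3, 4 and 5), Lyz2 (STAT5B 1 to 3, no-target 1, 3, 4 and 5), Cpa3 (LSD1 2, no-target 1, 2, 4 and 5) and Hdc (HDAC3 1 to 3, LSD1 2); these last 4 were also lost without the filter, without the 5 libraries and with the replicate block. The calls of Stat5a, Kdm1a and Gfi1b in knockdowns were lost only in fits of the 2 groups or without the 5 libraries, where a lone HDAC3 library is assumed to vary like the rest. With 3 libraries in a knockdown group, 95% intervals of Id2 span over 2 units on the log2 scale.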
